A study of Mus musculus with 6 samples.

Results

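The genes described here encode LIF and other parts of IL-6 family signalling in B16F10 cells: the ligands Lif, Il6 and Il11, the receptor chains Lifr, Il6st and Osmr, the kinase Jak1, the transcription factor Stat3 and its inhibitor Socs3. They are 9 of the 27179 genes of the deposited table, found by symbol, and each was present once. The list was chosen by a measured value, since it was drawn up after the change of Lif between the treatments in the authors' own comparison had been seen. B16F10, a murine melanoma cell line of the genotype given as WT, was grown in DMEM with fetal bovine serum. RNA was sequenced from 3 samples treated for 6 h with 0.01% ozonated olive oil (OZO) and from 3 samples treated for 6 h with 0.01% olive oil (OLO), the precursor that had not been ozonated. Both groups therefore received oil, and no untreated sample is among them.

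Most cytokines of the IL-6 family, though not IL-31, share the receptor chain gp130, encoded by Il6st. These ligands act through gp130 with other chains: LIF with the LIF receptor, oncostatin M with the LIF receptor or the oncostatin M receptor, and IL-6 and IL-11 with receptor chains of their own that bind the ligand. Janus kinases attached to these chains phosphorylate STAT3, which enters the nucleus and induces, among other genes, Socs3, whose product blocks the receptor complex and closes a feedback loop. In melanoma, the family is known for autocrine IL-6 and for effects on growth that change as the tumour advances.

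The value examined for each gene is the authors' mean over all 6 libraries, on the scale of log2 CPM, in which each count is divided by the size of its library. This mean joins OZO-treated and OLO-treated cells, so it shows which parts of the pathway these cells expressed under the treatments together, and it holds no difference between them. The columns that compare the treatments are the authors' own result and were not used. Nor does a mean hold the spread between libraries, so no SD is given and no test was made. For 6025 genes no read was counted in any library, and these share the lowest mean, from which the geometric mean of the library sizes was 19641945 reads. A level of 1 CPM thus stood for 19.6 reads per library, and 11878 genes (43.7%) reached it. In RNA from a whole culture, fewer cells that express a gene and less RNA per cell cannot be told apart.

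The label of the cells was examined through marker genes. All 8 melanocyte markers were well above 1 CPM. Per kilobase of exon, they ran from Mc1r, the melanocortin receptor, with 16.8 CPM to Tyrp1, an enzyme of melanin synthesis, with 2062 CPM. Markers of other cell types were low. In the immune list 1 of 7 genes reached 1 CPM, namely Cd68, a lysosomal protein, at 4.35 CPM per kilobase, whereas Ptprc, which encodes the pan-leukocyte protein CD45, had 0.00384 CPM per kilobase. The summed level was 17254 CPM for the melanocyte list, against 6.30 CPM for immune, 6.55 CPM for fibroblast, 0.179 CPM for keratinocyte and 3.72 CPM for endothelial markers. Among the last 3 lists, 3 of 6, 0 of 5 and 2 of 5 genes reached 1 CPM, and the highest was Pdgfra, a growth factor receptor, at 0.327 CPM per kilobase. Krt5, a keratin of basal keratinocytes, had no reads in any library.

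**Figure D1:**
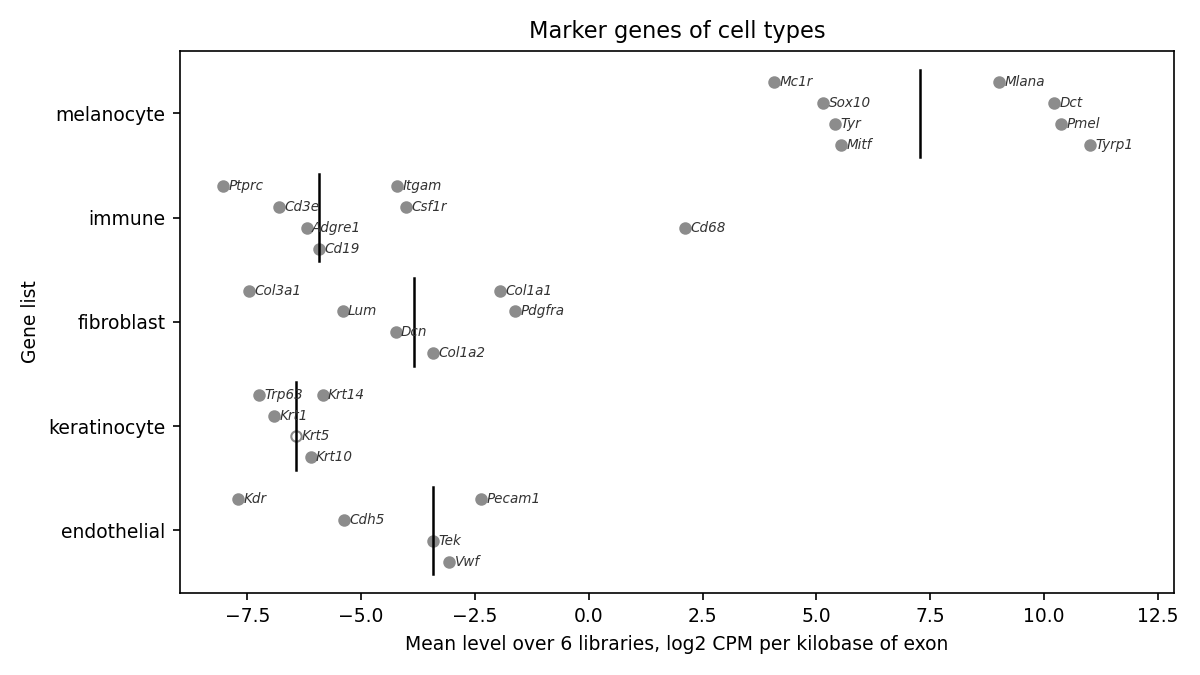
Mean level over the 6 libraries of marker genes of 5 cell types, in log2 CPM per kilobase of exon, with 1 point per gene, a vertical line at the median of each list and an open circle for Krt5, which had no reads and is drawn at the 0.5 reads that voom adds. All 8 melanocyte markers lie to the right of the markers of the other 4 types.

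The levels of the 9 genes ranged from 0.0610 CPM for Osmr to 204 CPM for Jak1. Per kilobase of exon, the order from high to low was Jak1, Stat3, Il6st, Lifr, Socs3, Il11, Il6, Lif and Osmr, so that the shared signalling parts stood at the top and the ligands and the oncostatin M receptor at the bottom. At 1 CPM or more were 5 of the 9 genes (55.6%), a share that can be set beside 43.7% of all genes. The remaining 4, Il11, Il6, Lif and Osmr, all had reads but fewer than 1 CPM by this mean, which need not hold in each library. The median of the 9 was 1.05 CPM per kilobase, and the median of the 19149 genes with reads and a known exon length was 1.48 CPM per kilobase. Counting error alone could not separate Lifr from Socs3, whose levels per kilobase differed by 0.01 on the log2 scale with a counting error of 0.09, nor Il6 from Lif, which differed by 0.31 with a counting error of 0.33. The other neighbouring levels in this order, Il6 and Osmr left aside, differed by more than 5 times their counting error. The step from Il11 to Il6 is not judged in this way. Its counting error takes the Il6 reads as alike in each library, but 1 library held at least 53. For the same reason the counting error of Il6 against Lif is not reliable. Nor is the step from Lif to Osmr judged, since the few Osmr reads give no reliable counting error. The spread between cultures, which is not held in the mean, adds to this error, so it is not known which of these neighbours differ beyond it.

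**Figure D2:**
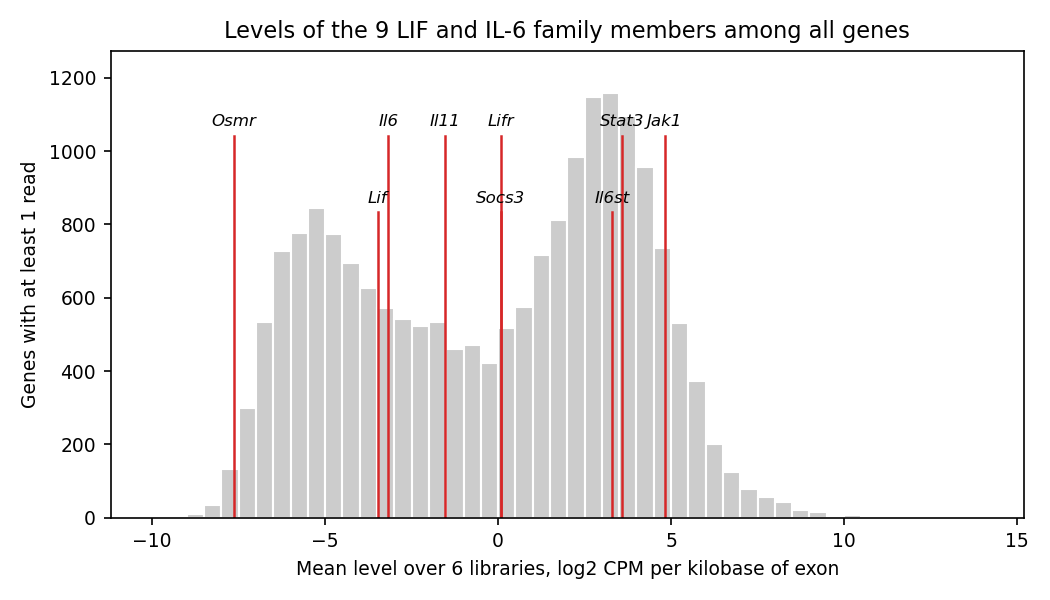
Mean level over the 6 libraries in log2 CPM per kilobase of exon, as a histogram of the 19149 genes with at least 1 read and a known exon length (grey bars, 0.5 log2 units wide), with a red line for each of the 9 genes (line heights carry no value). Jak1, Stat3 and Il6st lie within the upper peak, Lifr and Socs3 near 0, between the peaks, and Osmr at the far left, where the 0.5 reads that voom adds and the exon length set most of the position.

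The ligands were weakly expressed. Il11, which encodes interleukin 11, was the highest of the 3 with 0.724 CPM, or 0.348 CPM per kilobase, and 39.7% of the genes with reads lay below it. Lif, leukemia inhibitory factor, had 0.388 CPM, or 0.0892 CPM per kilobase, above 28.6% of those genes. Il6 had 0.269 CPM and, with shorter exons, 0.111 CPM per kilobase, above 30.5%. This mean does not describe each library, since 1 library held at least 53 Il6 reads. Of the 11 ligand and ligand subunit genes listed for the family, 1 reached 1 CPM and 10 did not. That gene was Cntf, ciliary neurotrophic factor, with 1.53 CPM per kilobase. Clcf1, cardiotrophin-like cytokine, had 0.0418 CPM per kilobase. Per kilobase, Ctf1, cardiotrophin 1, had 0.271 CPM, Il31 0.154 CPM, Il27 0.0650 CPM, Ebi3, a subunit of IL-27, 0.0382 CPM and Ctf2 0.0335 CPM. Osm, which encodes oncostatin M, had 0 reads in all 6 libraries, which allows a level of up to 0.0255 CPM (3 counts over the libraries, for counting error only).

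For weakly expressed genes the mean also limits how the reads can have been spread over the libraries. Because voom adds 0.5 to each count, the product over the 6 libraries of 2 times the reads plus 1 can be computed from the mean, and it must be an odd whole number. It was within 0.01 of one for 9503 of the 9503 genes with a product up to 10000000000. The product of Il6 was 1395387, which has the prime factor 107, so that 1 library held at least 53 Il6 reads. The geometric mean of reads plus 0.5 was only 5.29 per library for this gene. Over all 140 sets of reads that give the product, the highest library held at least 44.5% of the Il6 reads. It held more than all others together in 137 of the sets. The sets are not equally likely, however, and those with reads in few libraries tend to this by arithmetic, so this count gives no probability. Only the lower limits are read as results. From the mean alone the highest library, and its treatment, cannot be named. Of 724 genes within 0.3 of Il6 in mean log2 CPM, 10 (1.38%) had so large a prime factor. A library with as many reads is missed where 2 times the reads plus 1 is not prime. This share therefore does not give how often reads gather in 1 library.

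Lif was not bound in this way. Its product, 12567555, has 31 as its largest prime factor, so that the highest library held at least 15 reads, and the 6 libraries together held at least 47. As large a prime factor, which again is no measure of how often reads are uneven, was present in 27.6% of 733 genes within 0.3 of Lif. Il11 had at least 84 reads in all, with at least 19 in the highest library. These are lower limits, and less even spreads over the libraries with more reads give the same mean.

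**Figure D3:**
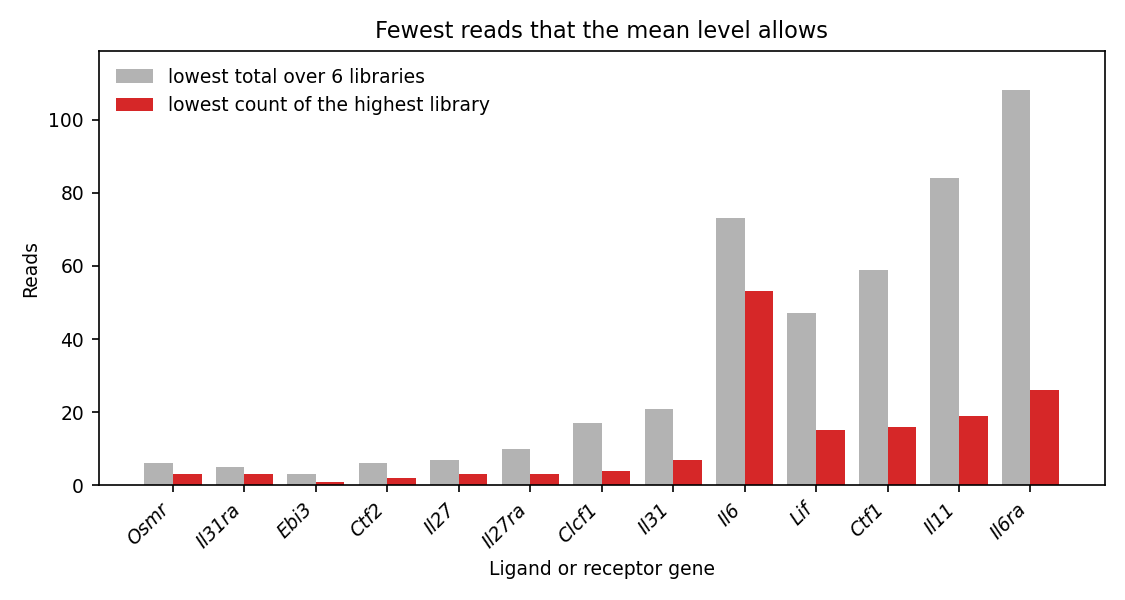
Fewest reads that the mean level allows, for ligand and receptor genes with reads and a product up to 10000000000 (x axis, genes; y axis, reads). Grey bars give the lowest possible total over the 6 libraries and red bars the lowest possible count of the highest library, and for Il6 these are 73 and 53 reads, against 47 and 15 for Lif.

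Promoter sequence was not used in choosing the genes. Of 6 motifs searched in windows of 250 bases before the annotated starts (RefSeq, GRCm38.p6), the AP-1 motif TGANTCA, which reads the same on both strands, was present in the single windows of Lif and Il6 and in 1 of the 2 windows of Il11. The other window of Il11, before its outer start at chr7:4782858-4783107, did not hold it. These were 3 of the 11 windows of the 9 genes, all of which were found by symbol. Of all 32851 windows of this length, 6.75% held it. AP-1 is the factor formed by FOS and JUN proteins. To show where these letters lie, 100 bases around each match are printed 5′ to 3′ in the direction of the gene, with the match in capitals. The stretch of Lif lies at chr11:4257318-4257417 on the plus strand and that of Il6 at chr5:30012864-30012963 on the plus strand, both before the gene. That of Il11 lies at chr7:4778186-4778285 on the minus strand, before an inner start and in an intron of longer transcripts. The matches begin 228, 249 and 98 bases before the start.
Lif: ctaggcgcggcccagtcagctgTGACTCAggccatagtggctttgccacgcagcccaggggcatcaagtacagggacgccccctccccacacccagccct
Il6: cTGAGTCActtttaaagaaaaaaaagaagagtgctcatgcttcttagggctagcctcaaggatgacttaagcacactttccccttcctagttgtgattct
Il11: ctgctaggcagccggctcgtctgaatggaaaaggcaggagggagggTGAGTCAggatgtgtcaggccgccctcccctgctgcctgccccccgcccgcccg
None of the 11 windows held TATAAA on either strand, a form of the TATA box found in 12.4% of all windows. A match of letters is a description, and binding was not measured.

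Of the receptor chains, the shared one was far above its partners for LIF and oncostatin M. Il6st, or gp130, had 108 CPM and 9.77 CPM per kilobase, above 75.4% of the genes with reads. Lifr, the chain that pairs with gp130 to bind LIF, had 11.4 CPM and 1.06 CPM per kilobase, 9.24-fold lower than Il6st per kilobase. Osmr, the oncostatin M receptor, was close to the limit of detection with 0.0610 CPM, against the 0.0255 CPM at which genes without reads stand. Its level of 0.00503 CPM per kilobase, or 0.0111 with the longest transcript as the length, rests largely on the 0.5 reads that voom adds and on its exon length of 12113 bases. Osm, which had no reads but shorter exons, stands at 0.0112 CPM per kilobase on the same scale, so the place of Osmr among weak genes is not read as an order of expression. Its product was 189, for which only 7 sets of reads exist. The smallest of these is 3 reads in 1 library and 1 read in each of 3 others, or 6 reads in all, and the largest is 94 reads in 1 library. In every set at least 2 of the 6 libraries had no Osmr read.

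Among the chains that bind single ligands, levels differed widely. Cntfr, which binds ciliary neurotrophic factor, had 8.26 CPM per kilobase and stood next to Il6st. Il11ra1, the receptor for IL-11, had 2.68 CPM per kilobase, while Il6ra, the receptor for IL-6, had 0.104. Il11ra1 was thus 25.7-fold higher than Il6ra, or 44.1-fold with the longest transcript as the length. Il6ra had at least 108 reads over the libraries, with at least 26 in the highest. Il27ra had 0.0238 CPM per kilobase, and Il31ra, which pairs with the oncostatin M receptor to bind IL-31, had 0.0460 CPM from reads in at most 2 libraries. Il11ra2 had no reads, but it is a near copy of Il11ra1, and reads that fit both could have been lost or moved in counting. In total 4 of the 9 receptor genes reached 1 CPM, namely Il6st, Cntfr, Il11ra1 and Lifr.

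Jak1, the kinase bound to gp130 that is needed for signalling by this family, was the highest of the 9 genes with 204 CPM and 28.2 CPM per kilobase, above 91.1% of the genes with reads. Jak2 followed among the kinases with 12.2 CPM per kilobase, and Jak1 was 2.31-fold higher than Jak2 and 8.58-fold higher than Tyk2 per kilobase. Jak3, known from lymphoid cells, had 0.872 CPM and was the only one of the 8 kinases and phosphatases listed below 1 CPM. The phosphatase gene Ptpn11, whose product SHP2 binds gp130 and links it to the RAS pathway, was the highest of this list with 47.4 CPM per kilobase. Ptpn2, a phosphatase that acts on Janus kinases, had 21.9 CPM per kilobase, and Ptpn6, known from blood cells, 1.59. The exons of Jak1 overlap those of Raver2 on the opposite strand. How strand was used in counting is not given in the sources used here, so some reads of the pair could be assigned to either gene.

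Stat3 had 115 CPM and 12.1 CPM per kilobase, above 78.8% of the genes with reads. Of the 6 STAT genes listed only Stat6, which serves IL-4 and IL-13, was higher, with 19.6 CPM per kilobase. Stat5b had 9.02 CPM per kilobase, so that Stat3 was 1.34-fold higher than Stat5b, or 1.99-fold with the longest transcript as the length. At the low end were Stat2, a partner in interferon signalling, with 3.65 CPM per kilobase, Stat5a, which serves prolactin and growth hormone, with 1.96, and Stat4, known from lymphocytes, with 0.201 CPM per kilobase. Of the 6 genes 5 reached 1 CPM, all but Stat4. The 3′ ends of Stat3 and Stat5a overlap by 72 bases on opposite strands.

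Socs3, the feedback inhibitor that STAT3 induces, had a lower RNA level than Stat3 and Jak1. It had 3.03 CPM and 1.05 CPM per kilobase, about 59.6 reads per library, and 47.4% of the genes with reads lay below it. Per kilobase, Stat3 was 11.5-fold and Jak1 26.9-fold higher than Socs3. The other inducible inhibitors were lower still. Per kilobase, Socs3 was 9.92-fold higher than Cish, 12.5-fold higher than Socs1 and 3.62-fold higher than Socs2, the last only 1.83-fold with the longest transcript as the length. Those of the group that are not known mainly as cytokine-induced genes were higher, with Socs7 at 14.3, Socs4 at 7.06, Socs5 at 6.42 and Socs6 at 3.89 CPM per kilobase. Pias3, which binds STAT3 in the nucleus, had 4.92 CPM per kilobase, and Pias2 was the highest of the 12 inhibitors with 21.4, while Pias1 had 7.74. Socs1 and Cish, with 0.244 and 0.679 CPM, were the 2 inhibitors below 1 CPM.

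Socs3 was also the only one of the 9 genes with a STAT motif in its window. The letters TTCNNNGAA, the same on both strands and present in 7.02% of all windows, began 154 bases before the annotated start. The stretch printed to show them lies at chr11:117969467-117969566 on the minus strand, within an intron of the longest annotated form of the gene.
Socs3: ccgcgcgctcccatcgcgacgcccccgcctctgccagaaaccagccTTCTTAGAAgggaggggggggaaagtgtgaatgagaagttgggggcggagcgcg
The stricter form TTCCNGGAA, found in 0.913% of all windows, was in none of the 11. TGACGTCA, the element bound by CREB and found in 1.55% of windows, was in that of Jak1, 101 bases before its start. CACGTG, the E-box bound by MITF among other factors, was in none of the 11 and in 6.02% of all windows.

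Of 15 genes listed as STAT3 targets, 11 reached 1 CPM, with a median of 4.39 CPM per kilobase, beside 43.7% of all genes at 1 CPM and a median of 1.48 CPM per kilobase over the genes with reads. Mcl1, which protects cells from apoptosis, was the highest with 54.8 CPM per kilobase, followed by Tnfrsf12a, a receptor of the TNF family, with 19.4 and Ccnd1, cyclin D1, with 17.7. Junb had 4.39 and Fos 2.86 CPM per kilobase, and these encode parts of AP-1. Cebpb, a factor of the acute phase response, had 5.47 CPM per kilobase, while its relative Cebpd had 0.148. The lowest 3 were Bcl3 with 0.0465 CPM per kilobase, Fgb, a fibrinogen chain made in liver, with 0.0138, and Lcn2, an acute phase protein that binds iron carriers, with 0.0117. The product of Lcn2 allows only a single read in 1 library, and that of Fgb only 39 reads in 1 library. The order of these 3 genes is therefore not read as an order of expression. Many of these genes answer to other signals too, so their levels do not measure STAT3 activity.

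**Figure D4:**
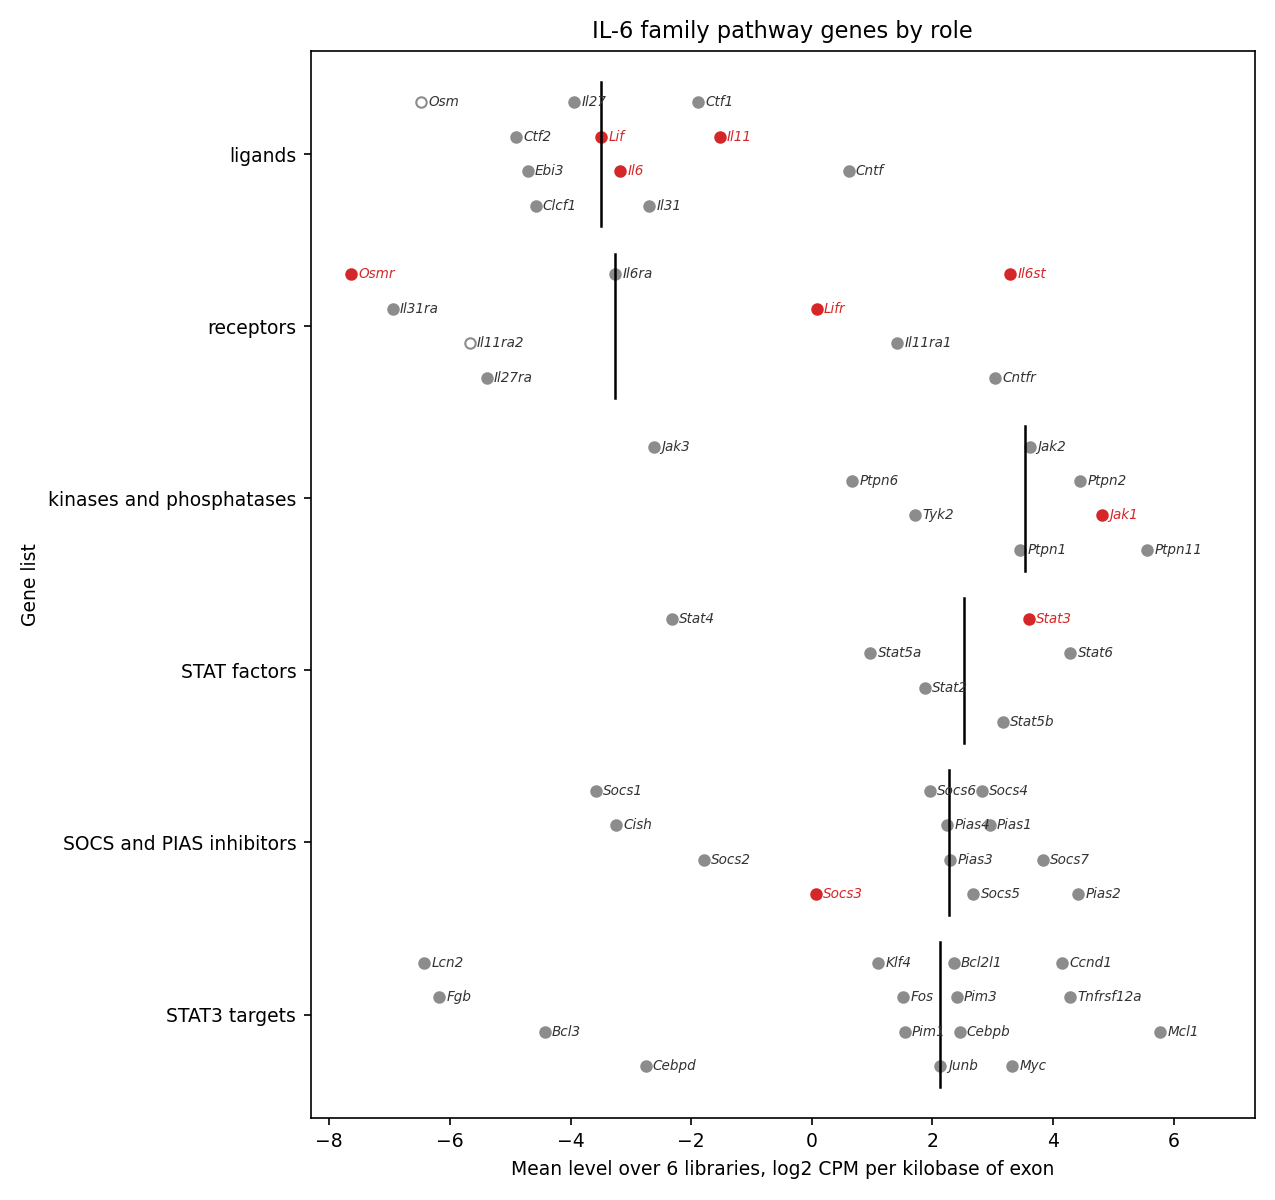
Mean level over the 6 libraries in log2 CPM per kilobase of exon for genes of the pathway by role, with 1 point per gene, the 9 genes described here in red, a vertical line at the median of each list, and open circles for Osm and Il11ra2, which had no reads and are drawn at the 0.5 reads that voom adds. The medians of ligands (0.0892 CPM per kilobase) and receptors (0.104) lie far to the left of those of kinases and phosphatases (11.6), STAT factors (5.74) and inhibitors (4.83).

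By role, 1 of 11 ligands and 4 of 9 receptors reached 1 CPM, and so did 7 of 8 kinases and phosphatases, 5 of 6 STAT factors and 10 of 12 inhibitors. Over all genes 43.7% did, so the share of the receptors (4 of 9) was close to that of all genes, while that of the ligands lay below it. In the first 2 lists the median gene lay above 28.6% and 30.1% of the genes with reads, and in the other 3 above 78.2%, 66.7% and 63.4%. The lists differ in what their products do outside this family, and no test was made of the difference between them.

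The CpG content of the promoter differed among the 9 genes too. With the window richest in CpG taken for each gene, the ratio of observed to expected CpG was at least 0.6 for Il6st, Jak1, Lifr, Osmr and Socs3, of which all but Osmr reached 1 CPM. It was below 0.6 for Lif (0.238), Il6 (0.277), Il11 (0.497) and Stat3 (0.564), of which only Stat3 reached 1 CPM. Over all genes with a window, 80.7% of 8731 with a ratio of at least 0.6 reached 1 CPM, and 23.9% of 9727 with a lower ratio did. Osmr and Stat3 were thus the 2 of the 9 genes that fell on the less common side of this split. Only this limit was used, and Stat3, at 0.564, lay close to it.

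Several of the genes lie side by side in the genome (GENCODE M21, GRCm38). Lif occupies chromosome 11 from 4257557 to 4272514 on the plus strand and is 16.5 kb from Osm, with no protein-coding gene between them. Lifr, on chromosome 15 from 7090614 to 7197489 on the plus strand, and Osmr, from 6813577 to 6874969 on the minus strand, are 216 kb apart, again with no protein-coding gene between them. Within both pairs the reads were unequal, since Osm had no reads where Lif had at least 47, and Osmr had at most 94 reads over all libraries where Lifr had about 224 per library. No fold is given for Lifr against Osmr, whose reads are not fixed by the mean. Il6st, on chromosome 13 from 112464070 to 112510086, is 9.81 kb from Il31ra, and this pair was also unequal, with 108 and 0.0460 CPM. Of the others, Jak1 lies on chromosome 4 from 101152367 to 101265282, Stat3 on chromosome 11 from 100885098 to 100939540, Socs3 on chromosome 11 from 117966079 to 117970047, Il11 on chromosome 7 from 4772373 to 4782859 and Il6 on chromosome 5 from 30013114 to 30019981. Other than Jak1 and Stat3, none of the 9 genes overlaps another annotated gene.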

How the data were processed

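RNA of B16F10 cells, 3 OLO-treated and 3 OZO-treated samples, was sequenced for the authors by a company (2 groups, directional libraries). According to the methods and the submitters' processing notes, reads were aligned to mm10 with HISAT2 (2.1.0), counted with featureCounts (2.1.1) and analysed with limma-voom (3.58.1). The authors deposited 1 table with 27179 genes. Its mean expression per gene, in log2 CPM over all 6 libraries, was the only value used. The other columns of the deposited table, a log2 fold change, moderated statistic, p-values and log odds, are the authors' own comparison of OZO with OLO and were neither used nor printed, so none of the planned tests of that comparison was run. The labels do not say whether the samples were separate cultures, and the study describes its expression values in B16F10 cells as coming from 3 independent experiments.

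The geometric mean CPM is 2 raised to the mean log2 CPM and includes the 0.5 reads that voom adds, which raises the level of genes with very few reads. The library size was computed from the mean shared by genes without reads and covers the normalized sizes, while the depth of single libraries is unknown. Levels per kilobase use the union of GENCODE M21 exons (GRCm38, the assembly of mm10), found for 23791 genes, and the authors' own exon set may differ. Counting errors were approximated as Poisson from the geometric mean of reads. Promoters were RefSeq windows. The calculations were tested on simulated counts. The members and gene lists were chosen with earlier results of these data known. Named were the 9 genes, all listed ligands and receptors, and of the other lists mainly the 3 highest and 3 lowest. Other genes were named after their values were seen. Some genes of these roles are not reported here. Python 3.11.15, numpy 2.4.6, pandas 2.3.3, scipy 1.17.1, sympy 1.14.0 and matplotlib 3.10.9 were used.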

Additional observations from a re-analysis of the deposited data

How the results depend on the processing

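No paired analysis was possible because the value used is 1 mean over all libraries, in which the libraries cannot be separated. Other tests, normalizations, filters and pseudocounts, a replicate block and leaving out each replicate were therefore not run. The number of the 9 genes at or above the minimum was 5 at 1 CPM, 6 at 0.5 CPM, where Il11 was added, and 5 at 2 CPM. With the longest transcript in place of all exons, the 9 levels per kilobase rose by 0.05 to 1.14 on the log2 scale, most for Osmr. Of these, 6 moved by more than their counting error, among them Osmr, whose counting error is not reliable. The order stayed the same except that Socs3 then stood above Lifr. The fold between Il11ra1 and Il6ra was 44.1 in place of 25.7, between Jak1 and Jak2 3.40 in place of 2.31, and between Socs3 and Socs2 1.83 in place of 3.62. The place of a gene depends on the genes it is set among. Among genes with a known exon length, Lifr lay above 47.4% of the 19149 with reads, 57.6% of all 23791, 12.9% of the 11449 at 1 CPM or more and 44.1% of the 17469 protein-coding genes with reads, and Jak1 above 91.1%, 92.8%, 85.1% and 90.3%.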

Other observations

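Fgb, of the STAT3 target list, had a product of 79, a prime number, which only 39 reads in 1 library and none in the other 5 can give. Itgam, an integrin of myeloid cells, had 97 as a prime factor and so at least 48 reads in 1 library, with a geometric mean of reads plus 0.5 of 5.32. Both genes were singled out after their values were seen. Whether these reads and those of Il6 came from the same library was not tested, since the mean does not name the libraries.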
